A study of Mus musculus with 6 samples.

Results

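The genes described here are 34 ganglion and neuronal genes, chosen by name for their roles in autonomic neurons: regulators, neurotrophic ligands and their receptors, transmitter enzymes and transporters, and cytoskeletal, secretory and synaptic genes. They were chosen with earlier results of these data known, so shares among them describe these genes and are not an independent test. Of the 34 listed genes, 33 were found by gene name among the 58116 features of the count table, and Tubb3 was not analysed here. The tissue was the salivary gland primordium of wild type mice at embryonic day 13.5, and its polyadenylated RNA was sequenced. The groups were 3 control libraries, given 0 ng/ml of BMP-2, and 3 libraries given BMP-2 at 300 ng/ml. BMP-2 is a growth factor of the bone morphogenetic protein (BMP) family. Tissue and genotype were the same in all 6 libraries. The strain, the sex, the length of treatment and whether primordia were pooled are not given in the sources used here. Nor do they tell whether replicate libraries stem from different litters or cultures, so p-values reflect how these libraries varied, possibly for technical reasons alone. The BMP-2 libraries are called replicate 1, replicate 2 and the unnumbered library, whose column matched no sample description and was placed in its group by the first letter of its name.

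The early salivary gland is innervated by a parasympathetic ganglion, whose neurons descend from neural crest cells that arrive along a nerve. The ganglion condenses beside the epithelium and sends axons along the branching ducts and end buds. Its neurons use acetylcholine and the peptide VIP, and the gland epithelium secretes neurturin, which acts on neurons through the receptors RET and GFRA2. BMP ligands are also known for promoting noradrenergic fate in sympathetic neurons, which arise from related crest cells.

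Total counts ran from 19724383 to 32473558 per library, and 29 of the 33 genes passed the expression filter, with 92 to 6252 counts over the 6 libraries. No batch is named in the labels. Of 17006 genes tested, 138 rose (0.811%) and 17 fell (0.1%) with BMP-2 (adjusted p below 0.05, by Benjamini and Hochberg's method after edgeR's quasi-likelihood test). The BMP target genes Id1 and Id3, a check of the treatment, had levels of 60.5 and 79.9 CPM (counts scaled to a common library size) in BMP-2 replicate 1, 114 and 155 CPM in replicate 2, and 99.4 and 122 CPM in the unnumbered library. In the controls Id1 was at 21.0 to 28.8 CPM and Id3 at 27.7 to 39.7 CPM. Both were called higher in the comparison of all 6 libraries (adjusted p = 0.0245 and 0.0298, edgeR), but not without control replicate 1 (0.127 and 0.128), control replicate 2 (0.0919 and 0.114) or the unnumbered library (0.0882 and 0.0983), nor Id3 without control replicate 3 (0.0607) or without the low-count filter (0.0922).

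None of the 29 tested ganglion and neuronal genes was called, in either direction, against 0.911% of all tested genes (edgeR, adjusted p from 0.0683 to 0.998). Most of them were nevertheless lower in the BMP-2 libraries: 24 had a negative log2 change and 5 a positive one, and their median log2 change was -0.54, where the median of all tested genes was -0.01. A negative log2 change was found for 52% of all tested genes. At an unadjusted p below 0.05, 11 were lower (37.9%, against 3.65% of all tested genes) and 2 were higher (6.47% of all tested genes were). A log2 change of -0.5 or lower was found for 15 of the 29, against 5.83% of all tested genes, and of -1 or lower for 6, against 1.53%. For 12 of the 29 every BMP-2 library lay below every control (41.4%, against 6.73% of all tested genes), for 2 every BMP-2 library lay above (8.76% of all tested genes did), and for 15 the groups overlapped. Neurons are a small share of this tissue, and in bulk RNA fewer neurons and less RNA per neuron cannot be told apart. By DESeq2 Slc18a3, Chga and Stmn2 were called lower (adjusted p = 0.000703, 0.0196 and 0.0406), and by limma-voom none.

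**Figure D1:**
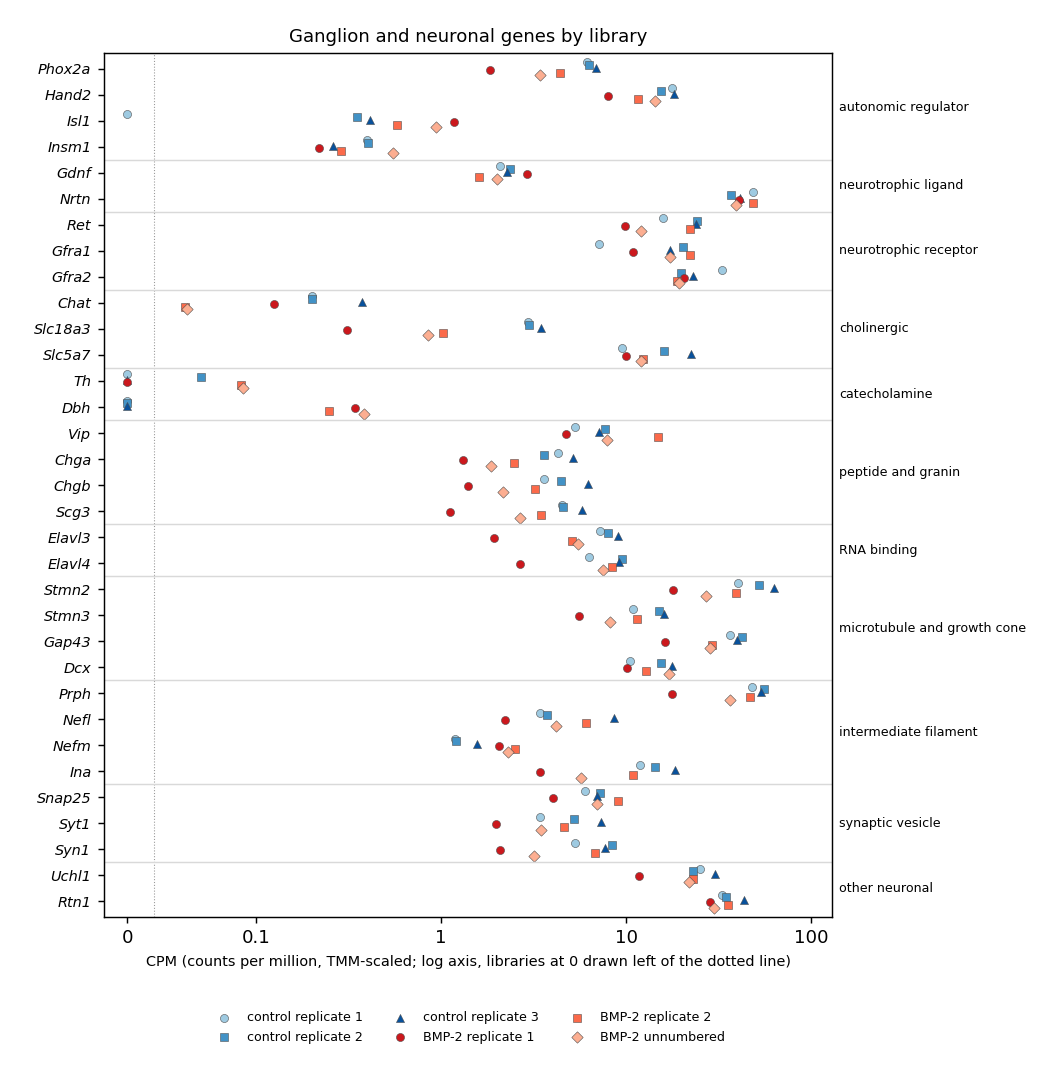
Level of the 33 measured genes (rows, grouped by role) in each of the 6 libraries, in CPM on a log axis, with blue points for the 3 controls and red points for the 3 BMP-2 libraries. Most red points lie left of the blue ones, BMP-2 replicate 1 farthest, whereas Isl1, Nefm and Dbh lie to the right.

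The control libraries show which neuronal genes were abundant in the untreated gland. Per kilobase of gene length, Gap43, which encodes a growth cone protein, had a level of 25.4 ± 1.84 CPM per kilobase and Prph, which encodes peripherin, the intermediate filament of peripheral neurons, 24.0 ± 1.93 (SD, n = 3). The ranges of these 2 genes overlapped, and both lay above the next, the neuronal ubiquitin hydrolase gene Uchl1 at 15.6 ± 2.22 CPM per kilobase (SD, n = 3). Then came the neurotrophic ligand gene Nrtn at 14.9 ± 2.07 and the microtubule regulators Stmn3 at 12.3 ± 2.42 and Stmn2 at 9.27 ± 2.02 CPM per kilobase (SD, n = 3), each overlapping its neighbour. At the other end, Chat was at 0.0548 ± 0.0214 CPM per kilobase (SD, n = 3), Th had 1 count in the 3 controls together, and Dbh had none. Of the 32 pairs of neighbours in this order, 7 did not overlap between the 3 controls. As a mark of their identity, the autonomic regulator Phox2a was present in every control, at 6.11 to 6.84 CPM. Sensory ganglion markers were low. Of 12 listed, 8 failed the filter, among them Pou4f1, Prrxl1, Trpv1 and Scn10a, and Neurod1 and Neurog1 were at 0 in all 6 libraries. The most abundant listed sensory marker, Runx1, at 180 CPM in the controls, is also expressed outside neurons.

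**Figure D2:**
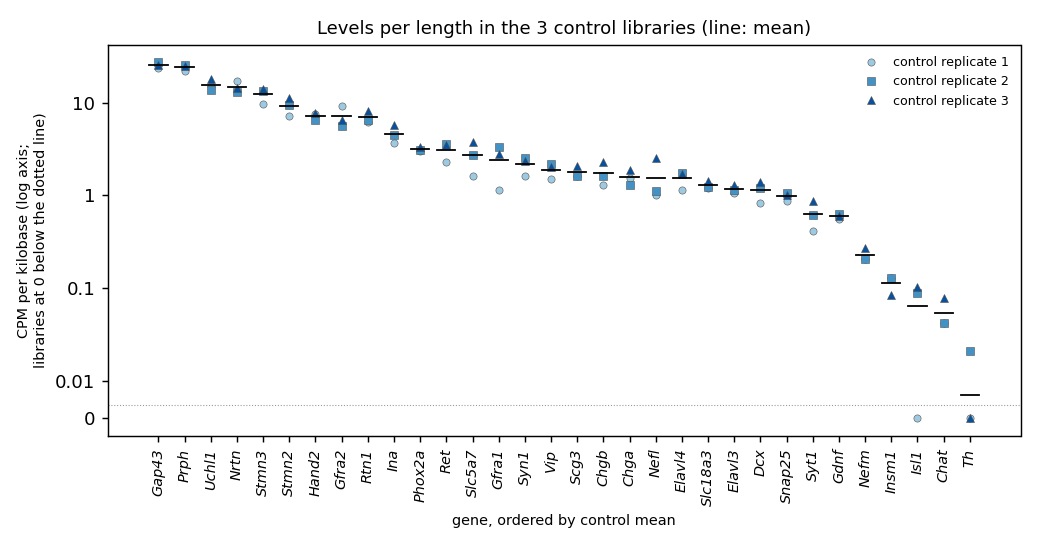
Level per kilobase of gene length (log axis) of 32 genes in the 3 control libraries, ordered by mean, with a line at the mean; Dbh, at 0 in all 3, is left out. The order runs from Gap43 at 25.4 to Th at 0.00705 CPM per kilobase, with overlap between most neighbours.

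Among the regulators, Phox2a and Hand2 were lower and Isl1 higher in the BMP-2 libraries, none of them called. Phox2a encodes a homeodomain protein that autonomic neurons need. Here and in what follows, values are given in the order control replicate 1, 2 and 3, then BMP-2 replicate 1, replicate 2 and the unnumbered library. Phox2a levels were 6.11, 6.30 and 6.84 CPM in the controls, then 1.83, 4.396 and 3.43 CPM in the treated glands. The groups did not overlap, and BMP-2 replicate 1 was lowest (log2 change -1.001, 95% interval -1.73 to -0.27, edgeR adjusted p = 0.247). The 3' end of Phox2a overlaps Inppl1 on the other strand, and if strand was not used in counting their reads cannot be told apart. Hand2 encodes a basic helix-loop-helix factor of autonomic neurons that is also made in jaw and gland mesenchyme. Its levels were 17.7, 15.4 and 18.1 CPM in the controls and 7.95, 11.7 and 14.3 CPM with BMP-2, without overlap (log2 change -0.60, adjusted p = 0.346, edgeR). The antisense gene Hand2os1 overlaps it, so the same limit holds.

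Isl1, a LIM homeodomain gene of sensory and sympathetic neurons and of other tissues, had 0, 7 and 11 counts in the controls, against 38, 14 and 22 counts in the treated libraries. After scaling, the controls were at 0, 0.350 and 0.411 CPM and the BMP-2 libraries at 1.18, 0.575 and 0.932 CPM. Every BMP-2 library thus lay above every control (log2 change 1.76, interval 0.06 to 3.47, adjusted p = 0.466, edgeR). Replicate 1, lowest for most other neuronal genes, was highest here. With so few control counts, Isl1 passed the expression filter only through the BMP-2 libraries. Its change and its place among the higher genes are therefore a description and not independent support for a rise. Insm1, a zinc finger gene of newly formed neurons and endocrine cells, failed the filter, with 23 counts in the controls and 27 in the BMP-2 libraries.

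The neurotrophic ligands did not differ beyond the spread between libraries. Nrtn, which encodes neurturin, was at 48.6, 37.0 and 41.3 CPM in the controls and 41.0, 48.5 and 39.3 CPM with BMP-2. The groups overlapped fully, and the 95% interval of the log2 change, -0.29 to 0.33, leaves room for changes of that size (0.02, SE 0.136, adjusted p = 0.990, edgeR). Gdnf, the gene of the related ligand that acts through GFRA1, was at 2.09 to 2.35 CPM in the controls and 1.60 to 2.92 CPM with BMP-2 (interval -0.74 to 0.66). Per kilobase, Nrtn stood 20.7 to 30.6 times above Gdnf in the controls and 18.5 to 39.8 times above it with BMP-2. Their shared receptor kinase gene Ret was at 15.8, 24.3 and 23.9 CPM in controls and 9.91, 22.1 and 12.1 CPM after BMP-2. The groups overlapped, since BMP-2 replicate 2 lay among the controls (log2 change -0.54, adjusted p = 0.702, edgeR). The coreceptor gene Gfra2 was at 19.9 to 33.1 CPM in the controls, highest in control replicate 1, and 18.8 to 20.6 CPM with BMP-2 (log2 change -0.37, interval -0.80 to 0.06). Gfra1 was lowest in control replicate 1, at 7.16 CPM, against 20.4 and 17.3 CPM in the other 2 controls and 10.9, 22.3 and 17.2 CPM with BMP-2 (log2 change 0.17). Its sign turned without control replicate 1 (-0.17) or without BMP-2 replicate 2 (-0.09).

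Cholinergic genes included the one with the lowest adjusted p of the set. Slc18a3 encodes the vesicular acetylcholine transporter, which loads the transmitter into synaptic vesicles, and it lies within the Chat gene on the same strand, on chromosome 14 from 32184395 to 32186807 (GRCm39, the whole gene). Its counts were 59, 60 and 93 in the controls, against 10, 25 and 20 in the treated libraries. As levels these were 2.93, 3.001 and 3.47 CPM without BMP-2 and 0.311, 1.03 and 0.848 CPM with it, so that the highest BMP-2 library stood well below the lowest control. The log2 change was -2.12 (SE 0.428, interval -3.10 to -1.14), which is 22.9% of the control level, with an adjusted p of 0.0683 in edgeR. Without single libraries the log2 change ran from -2.46 to -1.74. Without the low-count filter the adjusted p was 0.000797 (edgeR). Chat, the gene of the enzyme that makes acetylcholine, had only 4, 4 and 10 counts in the controls and 4, 1 and 1 with BMP-2, and failed the filter. Summed over the libraries its scaled level was 3.59 times higher in the controls, with an exact 95% counting interval from 1.37 to 11.1 that leaves out the spread between libraries. Reads that fall in sequence shared by Slc18a3 and Chat may have been dropped or given to either, so both values are uncertain.

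The third cholinergic gene, Slc5a7, which encodes the high-affinity choline transporter, was at 9.49, 16.01 and 22.4 CPM in the controls and 10.03, 12.3 and 12.0 CPM with BMP-2. These groups overlapped, with control replicate 1 lowest of all (log2 change -0.49, adjusted p = 0.704, edgeR). Per kilobase, Slc5a7 was 1.32, 2.18 and 2.64 times as abundant as Slc18a3 in the controls and 13.2, 4.89 and 5.79 times with BMP-2. Vip, the gene of the vasodilator peptide that parasympathetic neurons release beside acetylcholine, was at 5.27, 7.70 and 7.10 CPM in controls and 4.75, 14.9 and 7.93 CPM after BMP-2. The BMP-2 libraries thus held both the lowest and the highest Vip level (log2 change 0.45, interval -0.44 to 1.35), and the change was -0.08 without BMP-2 replicate 2. The ratio of Vip to Slc18a3 per kilobase was 1.23, 1.75 and 1.395 in the controls and 10.4, 9.92 and 6.39 with BMP-2.

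Of the catecholamine genes, Dbh had counts in every BMP-2 library and none in the controls. Dbh encodes dopamine beta-hydroxylase, the enzyme that makes noradrenaline from dopamine. It had 0 counts among the 67144310 of the 3 controls, and 11, 6 and 9 counts in the treated libraries. Set against a floor of 3 counts over the control group, its BMP-2 level was 7.23 times that floor. This value leaves out counting error in the BMP-2 libraries and the spread between libraries, so it is not a lower limit. With 26 counts in all, Dbh failed the expression filter; without that filter it was called higher (edgeR adjusted p = 0.0175 over 31643 genes). Th, the gene of tyrosine hydroxylase, the rate-limiting enzyme upstream of DBH, was close to absent from both groups, with 1 count in the controls and 4 after treatment (ratio 3.34, exact 95% interval of counting error 0.330 to 164).

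Genes of the secretory granule were among the lower ones. Chga and Chgb encode chromogranins A and B, acidic proteins that pack peptides and amines into dense-core granules, and Scg3 encodes secretogranin III, which binds chromogranin A. Chga was at 4.28, 3.60 and 5.16 CPM in the controls and 1.30, 2.46 and 1.86 CPM with BMP-2, without overlap (log2 change -1.22, interval -1.92 to -0.51, adjusted p = 0.135, edgeR). Chgb was at 3.58, 4.45 and 6.24 CPM and then 1.398, 3.205 and 2.16 CPM, and Scg3 at 4.52, 4.55 and 5.75 CPM and then 1.12, 3.45 and 2.67 CPM, also without overlap (log2 changes -1.09 and -1.04). In all 3 genes BMP-2 replicate 1 was lowest and replicate 2 the highest of the treated libraries. A further granin, Scg2, belongs to the list of other neuronal genes and was its 1 called member: it fell from 13.8, 16.6 and 18.4 CPM to 2.92, 6.61 and 5.51 CPM (log2 change -1.70, SE 0.293, adjusted p = 0.0440, edgeR). Its call ended without control replicate 1, 2 or 3 (adjusted p = 0.119, 0.153 and 0.0841) or without the unnumbered library (0.141), while the log2 change stayed between -1.96 and -1.42 whichever library was left out.

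The letters upstream of the granin starts are given as a description, chosen with the counts known. BMP-2 replicate 1 was lowest of all 6 libraries for 22 of the 29 tested genes, so being lowest there is not particular to granins. Any link between these letters and the levels was not tested. The 150 bases before the start of Chga, Chgb, Scg2, Scg3 and Th, from RefSeq on build GRCm38, not the build of the count table, are given from 5′ to 3′ on the strand of the gene. Capitals mark TGACGTCA or its variant TGACGTNA, the cyclic AMP response element. Scg3 held no such letters before its start in the RefSeq window. Th is shown because it holds the same letters and had almost no counts.
Chga (chr12:102554791-102554940, plus strand): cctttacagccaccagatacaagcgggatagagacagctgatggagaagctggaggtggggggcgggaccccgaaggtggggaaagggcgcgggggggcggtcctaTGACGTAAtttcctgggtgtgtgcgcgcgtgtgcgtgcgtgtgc
Chgb (chr2:132781492-132781641, plus strand): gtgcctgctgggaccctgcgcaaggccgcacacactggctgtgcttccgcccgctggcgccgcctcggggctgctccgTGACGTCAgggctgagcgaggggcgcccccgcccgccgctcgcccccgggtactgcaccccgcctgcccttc
Scg2 (chr1:79440027-79440176, minus strand): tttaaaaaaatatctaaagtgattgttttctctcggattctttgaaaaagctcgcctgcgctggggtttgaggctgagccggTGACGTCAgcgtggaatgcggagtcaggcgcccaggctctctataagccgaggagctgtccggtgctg
Scg3 (chr9:75684057-75684206, minus strand): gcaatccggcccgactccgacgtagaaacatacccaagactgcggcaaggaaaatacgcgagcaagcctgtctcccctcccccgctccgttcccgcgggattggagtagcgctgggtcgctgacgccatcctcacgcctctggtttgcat
Th (chr7:142899996-142900145, minus strand): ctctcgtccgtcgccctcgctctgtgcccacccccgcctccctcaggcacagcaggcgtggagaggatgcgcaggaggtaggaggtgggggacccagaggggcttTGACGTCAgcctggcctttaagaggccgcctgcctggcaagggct
The motif began 44, 72, 68 and 45 bases before the start in Chga, Chgb, Scg2 and Th. RefSeq promoters, from 250 bases before to 50 after a start, were at hand for 26 of the 34 genes. TGACGTNA, searched on both strands, was in the promoters of 4 of them, Th, Syn1, Chga and Chgb (15.4%), and of 3.36% of all 27025 genes with a promoter; TGACGTCA, which it contains, was in 3 of the 26 and 2.03% of all. These and the other motifs were searched with the counts already known. CAGCTG was in 38.5% of the 26 and 18.3% of all, CATCTG in 19.2% and 19.2%, CACGTG in 3.85% and 8.09%, GGCGCC in 11.5% and 13.4%, and TATAAA in 26.9% and 15.7%. No promoter of the 26 held TGACGCAA, found in 0.562% of all, nor the RE1 element (0.0407%). Neither of the homeodomain strings searched was found in the 26 (1.17% and 0.303% of all). These strings do not cover the general dimer site of paired homeodomain proteins, so its absence was not tested. All of the shares given here are matches of letters only.

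General neuronal genes were mostly lower, and the size depended on the library. Stmn2 encodes stathmin-2, which regulates microtubules in growing axons. It was at 40.3, 52.7 and 62.9 CPM in the controls and 18.0, 39.4 and 26.9 CPM with BMP-2. The highest treated library lay just below the lowest control (log2 change -0.89, interval -1.56 to -0.22, adjusted p = 0.280, edgeR). Its relative Stmn3 was at 10.9 to 16.1 CPM and then 5.59 to 11.5 CPM, with overlap (log2 change -0.74). Gap43 was at 36.5, 42.2 and 40.0 CPM in controls and 16.2, 29.2 and 28.6 CPM after BMP-2, groups that did not overlap (log2 change -0.68, adjusted p = 0.247, edgeR). Dcx, the gene of doublecortin, a microtubule protein of migrating neurons, was at 10.5, 15.4 and 17.7 CPM and then 10.1, 12.8 and 17.0 CPM, which overlapped (log2 change -0.13, interval -0.70 to 0.44). Elavl3 and Elavl4 encode neuronal RNA-binding proteins: Elavl3 was at 7.26 to 9.04 CPM in controls and 1.93 to 5.51 CPM after BMP-2, without overlap (log2 change -0.96), and Elavl4 at 6.26 to 9.50 CPM and then 2.67 to 8.42 CPM, with overlap (log2 change -0.43).

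The intermediate filament genes differed in sign. Ina, which encodes alpha-internexin of early neurons, was at 11.8, 14.4 and 18.4 CPM in controls and 3.42, 10.97 and 5.72 CPM after BMP-2, without overlap (log2 change -1.16, adjusted p = 0.314, edgeR). The 5' start of Ina overlaps Nt5c2, a gene with more counts, on the other strand, so its reads are uncertain if strand was not used. Prph was at 47.9 to 56.1 CPM in the controls and 17.7, 46.8 and 36.6 CPM with BMP-2, just without overlap, with replicate 1 farthest below (log2 change -0.64, interval -1.39 to 0.10). Nefl, the light neurofilament gene, was at 3.43, 3.75 and 8.63 CPM and then 2.21, 6.08 and 4.196 CPM; control replicate 3 stood above the rest, and without it the log2 change turned from -0.35 to 0.22. Nefm, the medium neurofilament gene, went the other way, at 1.19, 1.20 and 1.57 CPM in the controls and 2.05, 2.51 and 2.29 CPM with BMP-2. Every treated library lay above every control (log2 change 0.78, interval 0.13 to 1.43, adjusted p = 0.348, edgeR). Nefl lies inside the span that the count table gives to Nefm, on the other strand, so reads of the pair may be mixed if strand was not used.

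The 3 members grouped here as synaptic vesicle genes overlapped between the groups, unlike the vesicular transporter gene Slc18a3. In the list of other neuronal genes, Syp and Vamp2 were named after their values were seen. Syp was lower without overlap (log2 change -1.01, adjusted p = 0.060, edgeR), and Vamp2 overlapped (log2 change 0.07). Snap25, the gene of a membrane fusion protein, was at 5.97 to 7.25 CPM in controls and 4.01 to 9.08 CPM after BMP-2 (log2 change -0.01, interval -0.69 to 0.67). Syt1, the gene of the calcium sensor synaptotagmin 1, was at 3.43 to 7.28 CPM and then 1.99 to 4.64 CPM (log2 change -0.66, adjusted p = 0.688, edgeR), and Syn1, the synapsin I gene, at 5.32 to 8.35 CPM and then 2.08 to 6.82 CPM (log2 change -0.83, adjusted p = 0.610, edgeR). Syn1 encloses Timp1 on the other strand, so its reads are uncertain in the same way. Uchl1 was at 23.1 to 30.4 CPM in the controls and 11.7, 22.9 and 21.9 CPM with BMP-2, just without overlap (log2 change -0.48), and Rtn1, the gene of a reticulon of the endoplasmic reticulum, at 33.1 to 43.7 CPM and then 28.5 to 35.8 CPM (log2 change -0.25, interval -0.58 to 0.09).

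**Figure D3:**
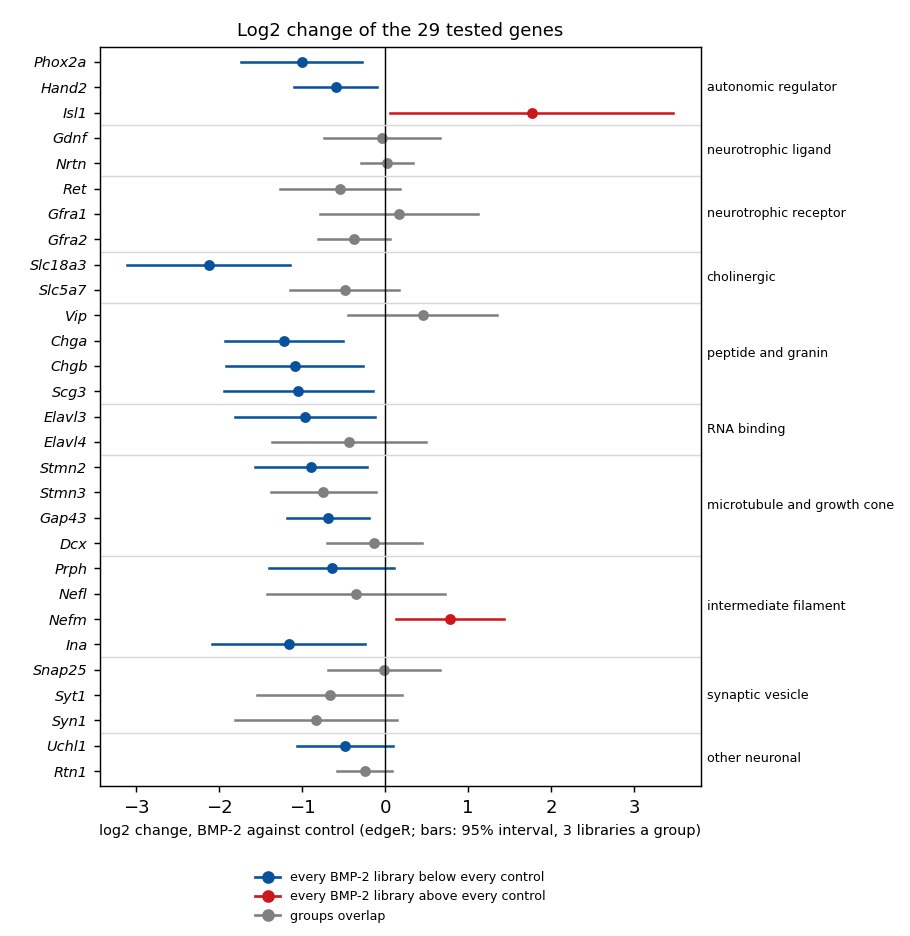
Log2 change of the 29 tested genes between 3 BMP-2 and 3 control libraries (edgeR), with 95% intervals, coloured by whether the libraries of the groups overlap. The points run from -2.12 for Slc18a3 to 1.76 for Isl1, 24 of them below 0, and no gene passed an adjusted p of 0.05.

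The treated libraries differed among themselves. BMP-2 replicate 1 had the lowest level of all 6 libraries for 22 of the 29 tested genes (75.9%), whereas it was lowest for 17.4% of all tested genes. It was the lowest treated library for 25 of the 29, and BMP-2 replicate 2 was the highest treated library for 23. The median deviation of the 29 genes from the control mean was -1.15 on the log2 scale in BMP-2 replicate 1, -0.19 in replicate 2 and -0.36 in the unnumbered library, against -0.17, 0.04 and 0.22 in control replicates 1, 2 and 3. BMP-2 replicate 2 therefore lay close to control replicate 1. Summed over the 33 genes, the level was 410, 463 and 517 CPM in the controls and 244, 420 and 345 CPM with BMP-2. Leaving out BMP-2 replicate 1 kept 22 negative log2 changes of 29, with a median of -0.39, and leaving out BMP-2 replicate 2 gave 26, with a median of -0.73. The lowest count was 21, without control replicate 3 (median -0.42), and the number lower at an unadjusted p below 0.05 was then 4, against 11 with all libraries (edgeR).

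**Figure D4:**
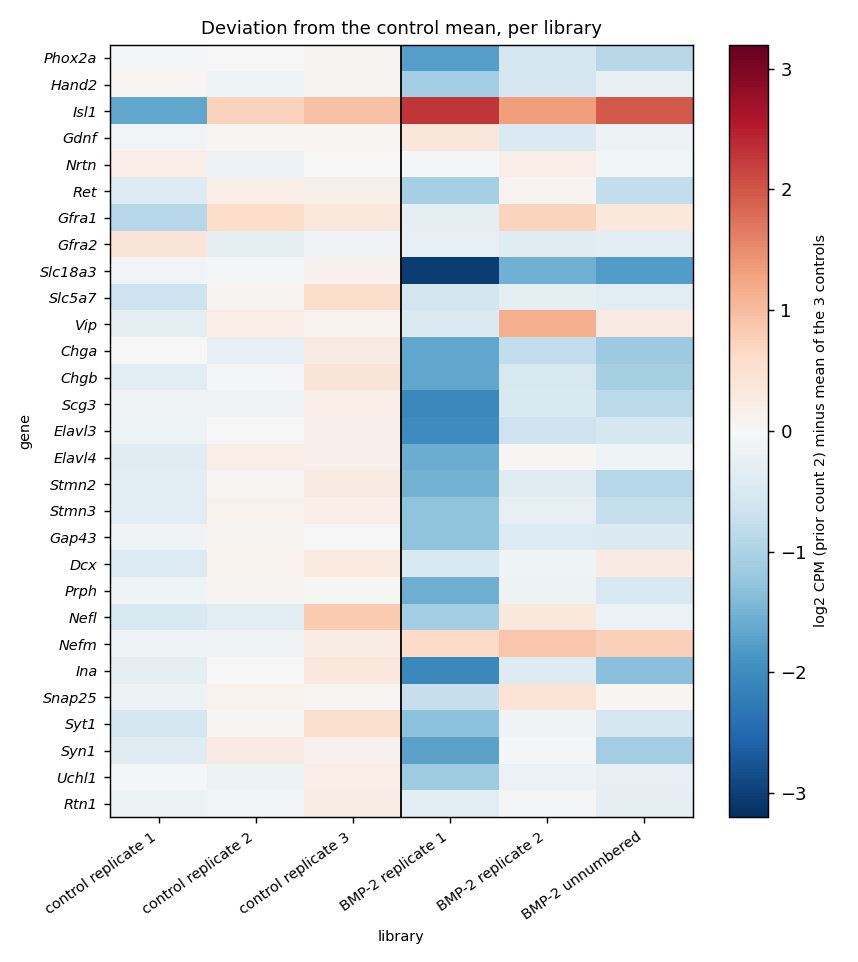
Log2 CPM of each tested gene (rows) in each library (columns) minus the mean of the 3 controls; blue is lower and red higher. The BMP-2 replicate 1 column is the bluest, with a median of -1.15, and Isl1 and Nefm are red in all 3 BMP-2 columns.

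Further genes of neurons, in lists also chosen with earlier results of these data known, were mostly lower too. Of 36 other cytoskeletal, synaptic and secretory genes of neurons, 35 were tested, Scg2 alone was called, 27 had a negative log2 change and the median was -0.38. For 15 of the 35 every BMP-2 library lay below every control (42.9%, against 6.73% of all tested genes). Of 18 other transmitter and receptor genes, 13 were tested and none was called in edgeR; 9 were negative and the median was -0.66. At an unadjusted p below 0.05, 6 were lower (46.2%, against 3.65% of all tested genes) and 1 was higher, Ddc, the gene of the enzyme that makes dopamine, named after its values were seen (2.39, 1.701 and 3.25 CPM, then 5.53, 5.75 and 4.58 CPM, log2 change 1.10, adjusted p = 0.141, edgeR). The 2 with the most counts over all 6 libraries were Nos1, the gene of neuronal nitric oxide synthase, at 16.2, 26.8 and 27.2 CPM in the controls, then 10.2, 18.2 and 11.8 CPM (log2 change -0.81), and Gch1, a gene of cofactor synthesis, with a log2 change of 0.05. Chrna3, which encodes a subunit of the ganglionic nicotinic receptor and was named after its values were seen, was above Gch1 in the controls alone (means of 1.45 and 1.06 CPM per kilobase): it was at 5.67 to 8.74 CPM and then 1.89 to 4.72 CPM (log2 change -1.32, adjusted p = 0.168, edgeR). Monoamine transporter genes of this list, also named after their values were seen, did not share the direction of Ddc as a group. Slc18a2 was lower without overlap (log2 change -0.89, adjusted p = 0.38, edgeR). Slc6a2 and Slc18a1 overlapped between the groups (log2 changes -0.18 and 0.50). Over the lists named here and the next one, DESeq2 called 7 genes lower.

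Other autonomic factors and receptors were more often higher. Of 26 listed, 20 were tested, 14 had a positive log2 change and the median was 0.15. The 2 called genes rose: Gata2 from 0.895, 0.950 and 1.08 CPM to 6.55, 4.35 and 5.09 CPM, and Gata3 from 3.43, 2.501 and 2.503 CPM to 8.57, 9.49 and 9.45 CPM (log2 changes 2.44 and 1.71, adjusted p = 0.0125 and 0.0158, edgeR). Both encode zinc finger factors of sympathetic neurons that are also made in epithelium and other tissues and respond to BMP in several of them. The Gata2 call ended without control replicate 1 or 2 or the unnumbered library (adjusted p = 0.0669, 0.0583 and 0.0551), and the Gata3 call without control replicate 2 or the unnumbered library (0.0799 and 0.0815). Receptors through which the gland receives nerve signals, with the 2 cholinesterases Ache and Bche, made a list of 10. Of these 9 were tested, none was called in edgeR, 6 had a negative log2 change and the median was -0.15. The 1 gene lower at an unadjusted p below 0.05 was Ache, which encodes acetylcholinesterase and was named after its values were seen; it was at 6.002 to 7.25 CPM in controls and 2.67 to 4.89 CPM after BMP-2, without overlap (log2 change -0.80, adjusted p = 0.270, edgeR). The 2 with the most counts over all 6 libraries were receptors. Vipr1, a VIP receptor gene, was at 42.3 ± 2.62 CPM in the controls and 44.0 ± 6.36 CPM with BMP-2, and Chrm3, a muscarinic receptor gene, at 35.1 ± 0.928 and 30.8 ± 2.58 CPM (SD, n = 3 each); Vipr1 overlapped between the groups and Chrm3 did not (log2 changes 0.06 and -0.19).

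Markers of other cells were read in the same libraries. Of 13 glial markers, 11 were tested and none was called (edgeR); 8 had a negative log2 change and the median was -0.18. At an unadjusted p below 0.05, 4 were lower (36.4%, against 3.65% of all tested genes) and 1 higher (6.47% of all tested genes were). For 5 of the 11 every BMP-2 library lay below every control (45.5%, against 6.73% of all tested genes). The matching shares of lower genes were 37.9% and 41.4% among the 29 ganglion and neuronal genes. Egfl8 had 1 count in all 6 libraries together. The summed glial level was 477 to 540 CPM in the controls and 427 to 567 CPM with BMP-2, most of it from Erbb3 and Sox10, which are also expressed by the gland epithelium. Among glial genes named after their values were seen, Foxd3, Fabp7 and Cdh19 had every BMP-2 library below every control, with log2 changes of -1.05, -0.88 and -0.71. The 1 higher gene was S100b, a calcium-binding protein gene of glia and other cells, at 4.11 to 7.36 CPM in controls and 6.74 to 10.6 CPM after BMP-2, with overlap (log2 change 0.69, adjusted p = 0.447, edgeR), and Mal was at a log2 change of 0.31. For all 14 skeletal muscle markers measured, every BMP-2 library lay above every control, as for 8.76% of all tested genes. Their summed level was 11.5, 6.85 and 113 CPM in the controls, which thus differed widely, against 907, 214 and 960 CPM in the treated libraries. Pax7, a muscle progenitor gene, was the 1 called member (log2 change 5.15, adjusted p = 0.0288, edgeR). The call ended without any single library but BMP-2 replicate 2 (edgeR adjusted p from 0.0641 to 0.102). With 0, 2 and 1 counts in the controls, Pax7 passed the expression filter only through the BMP-2 libraries. Among the treated libraries the one with the least muscle RNA, replicate 2, thus had the highest neuronal level, whereas among the controls replicate 3 was highest for both. Epithelial markers summed to 4322 to 5045 CPM without and 3661 to 5374 CPM with BMP-2, mesenchymal markers to 6652 to 7978 and 5321 to 8548 CPM, endothelial markers to 8.40 to 21.3 and 12.3 to 20.6 CPM and leukocyte markers to 50.5 to 123 and 92.7 to 164 CPM. The part of these cell types in the neuronal differences was not tested.

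**Figure D5:**
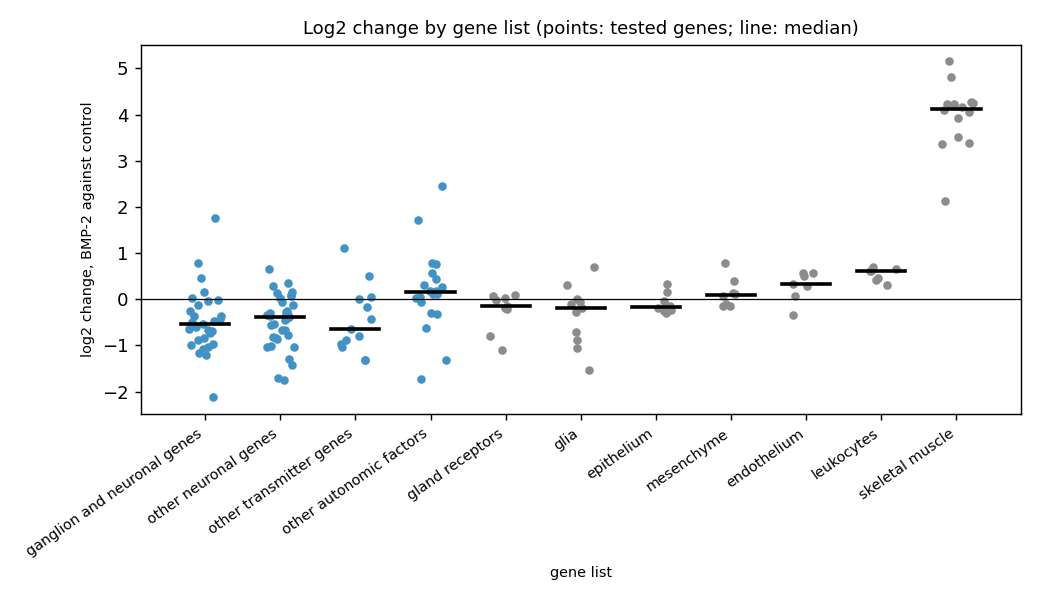
Log2 change of every tested gene, by list, with a line at the median; blue lists are neuronal and grey lists are receptors of the gland or markers of other cells. The medians of the first 3 lists lie at -0.54, -0.38 and -0.66, those of the other autonomic factors at 0.15 and of skeletal muscle at 4.12.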

How the data were processed

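The authors deposited 1 table of raw read counts per gene for 6 libraries. Cutadapt 2.9, HISAT2 2.2.0 and featureCounts, with build GRCm39, are listed in their processing notes (per the submitters' processing notes, with no roles); per the labels' protocols libraries were poly(A)-selected and directional. Whether counting used strand is not stated there. The members and lists were chosen with earlier results of these data known. Replicates differed by more than sampling noise (chi-square over its degrees of freedom, 12.7 to 38.2), so each counted as 1 sample. The test was edgeR 4.0.16 (R 4.3.3; TMM, default filter by group, robust quasi-likelihood fit, 4 residual degrees of freedom) over 17006 genes, with Benjamini-Hochberg adjustment at 0.05 and intervals of 95%; an exact permutation test of 3 against 3 cannot go below 0.1. The script was tested on simulated data. Alternatives used DESeq2 1.42.0 and limma-voom 3.58.1, other scalings and filters, a block for the replicate number, and each library left out in turn. CPM uses TMM-scaled totals. CPM per kilobase divides by the deposited gene length, and deviations use a prior count of 2. Counting intervals and floors cover counting error only. All 34 genes are named, with the called genes of each other list (up to 4), or its 2 most abundant, and Id1 and Id3; other genes are said to be named after their values were seen. Some genes of the other lists are not reported here by name.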

Additional observations from a re-analysis of the deposited data

How the results depend on the processing

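For the 29 genes, 442 log2 changes under the alternatives kept direction and side of the threshold, 16 changed sign and 5 became called. None of the 29 was called when any single library was left out, with other scalings or with limma-voom. DESeq2 called 3 lower; without the low-count filter 2 were lower and 1, Dbh, higher. With all tested genes, 138 were higher and 17 lower; the counts were 512 and 158 with DESeq2, 433 and 119 without the filter, 69 and 9 with limma-voom, 19 and 1 at an adjusted p below 0.01, and 10 lower with library totals alone. Leaving out single libraries gave 19 to 145 higher and 1 to 18 lower. Of the other lists 9 genes were called, 23 with DESeq2, 18 without the filter, 1 at an adjusted p below 0.01, and 1 to 9 without single libraries. Of the 3 other neuronal lists 1 gene was lower; the count was 7 with DESeq2, 6 without the filter, 0 with library totals or at 0.01, and 0 to 2 without single libraries. Leaving out single libraries turned the sign of uncalled changes, whose ranges were -0.17 to 0.45 for Gfra1, -0.32 to 0.14 for Gdnf, -0.074 to 0.13 for Nrtn, -0.0829 to 0.77 for Vip, -0.29 to 0.26 for Snap25, -0.73 to 0.22 for Nefl and -0.35 to 0.0478 for Dcx. Snap25 was at 0.0072 with library totals and 0.0101 without the filter. The cause was not tested.

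Replicate numbers 1 and 2 occur in both groups. Same-numbered libraries deviated together (correlation 0.43 and 0.14), but with 2 pairs they share only a number. A fit with the replicate block on those 4 numbered libraries called 452 genes higher and 89 lower, 24 of the other lists and none of the 29; Nefl was at 0.0612. In it Id1 and Id3 were not called (adjusted p = 0.114 and 0.247, edgeR), nor were they at a threshold of 0.01. At an adjusted p below 0.05, Id1 passed in 12 of 16 fits and Id3 in 10, counting the main fit and leaving out the 0.01 threshold. Leaving out BMP-2 replicate 3 could not be run as named, and the unnumbered library was left out in its place. Leaving a library out leaves an arm of 2, and genes with few counts, such as Isl1, Chat, Th and Dbh, are limited by depth.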
